A study of Sus scrofa with 9 samples.

Results

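miR-126 is the microRNA (miRNA) best known from the lining of blood vessels. Its members were found by name: every entry of the deposited table called ssc-miR-126, whatever its arm and whatever stands after the _ sign. There were 3 such entries among the 975 distinct entries of the table, 1 for the 5p arm and 2 for the 3p arm. All 3 passed the filter on low values and were among the 630 entries tested. Small RNAs were sequenced from the spleen of Ningxiang pigs, a local breed of China, taken 30, 90 or 210 days after birth. There were 3 libraries for each age; the labels name no treatment or genotype and do not give the sex. Nothing in the labels tells whether libraries of the same age stem from different pigs, so the tests reflect the variation among libraries only, part of which may be technical.

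A miRNA hairpin is cut into a duplex, of which 1 strand, or arm, is usually kept and guides silencing through its seed, the bases near its 5′ end that pair with target transcripts. In human and mouse, miR-126 is transcribed from an intron of EGFL7, a gene of endothelial cells, and its 3p arm represses SPRED1 and PIK3R2, which dampen signalling from the VEGF receptor, as well as the adhesion molecule VCAM1. The 5p arm has been described in mouse endothelium as a repressor of Dlk1. Platelets and blood stem cells are also known to hold miR-126 in human and mouse, so a spleen level need not come from vessels alone. In the RefSeq gene table for Sscrofa11.1 the pig genes MIR126 and EGFL7 both stand on sequence not placed on a chromosome. The start and end listed for EGFL7 enclose those of MIR126, but whether both lie on the same unplaced sequence was not checked. The genome build the authors used is not given in the sources used here, and no position is printed.

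The sequences of the 3 entries are shown because the arms differ in seed and the 3p entries differ in length. They are written 5′ to 3′ with T for U as in the table, and capitals mark the seed, bases 2 to 8.
miR-126-3p: tCGTACCGtgagtaataatgc
short miR-126-3p: tCGTACCGtgagtaataa
miR-126-5p: cATTATTActtttggtacgcga
The entry called miR-126-3p here has 21 bases and stands in the table with the suffix R-1. The entry called short miR-126-3p has 18 bases and the suffix R-4, and it is the first sequence without its last 3 bases. The 5p entry has 22 bases and the suffix R+1. Hybridised by RNAduplex, the 5p and the longer 3p sequence formed 18 base pairs.

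No other entry of the table shared the seed of either arm. The 3p seed holds the dinucleotide CG 2 times. Of 453 distinct pig miRNA sequences in the table, 69 (15.2%) had CG at least 1 time in bases 2 to 8, and 6 had it 2 times. Besides the 3p forms of miR-126 these were 2 entries of mir-1307 and 2 of mir-4332. The 5p seed holds no C or G.

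The values are normalised read numbers, scaled per library by the authors by a method the labels do not name. The value of 1 read could be read from the table, as the names of the authors' predicted candidates end in a number that matched their reads for most candidates found in a single library. On that scale the day 30 libraries held 6.90 M to 8.94 M estimated reads, those of day 90 held 6.56 M to 9.25 M, and those of day 210 held 4.50 M to 7.01 M. All 27 values of the 3 miR-126 entries were whole numbers of estimated reads (tolerance 0.01 of a read). Summed over all entries, the values came to 6.40 ± 0.219 M in day 30 libraries, 6.70 ± 0.316 M in day 90 libraries and 7.52 ± 0.339 M in day 210 libraries (SD over 3 libraries).

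miR-126-3p was by far the larger arm and its mean level was highest in the youngest spleens. It stood at 61699, 48773 and 59398 in the day 30 libraries (replicates 1, 2 and 3). The values were 38655, 47001 and 50086 at day 90. They were 36740, 41098 and 43836 at day 210. All 3 day 210 libraries lay below all 3 day 30 libraries, while day 90 overlapped with both. The means from the youngest to the oldest age were 56624 ± 6895, 45247 ± 5914 and 40558 ± 3578 (SD, n = 3). Every day 210 library of an entry lay below every day 30 library in 18.1% of all entries tested, so this separation is shared by many. For day 90 against day 30 that held for 13.8% and for day 210 against day 90 for 15.9%, and not for miR-126-3p. In a bulk tissue sample fewer cells of a type and less of the RNA per cell cannot be told apart.

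**Figure D1:**
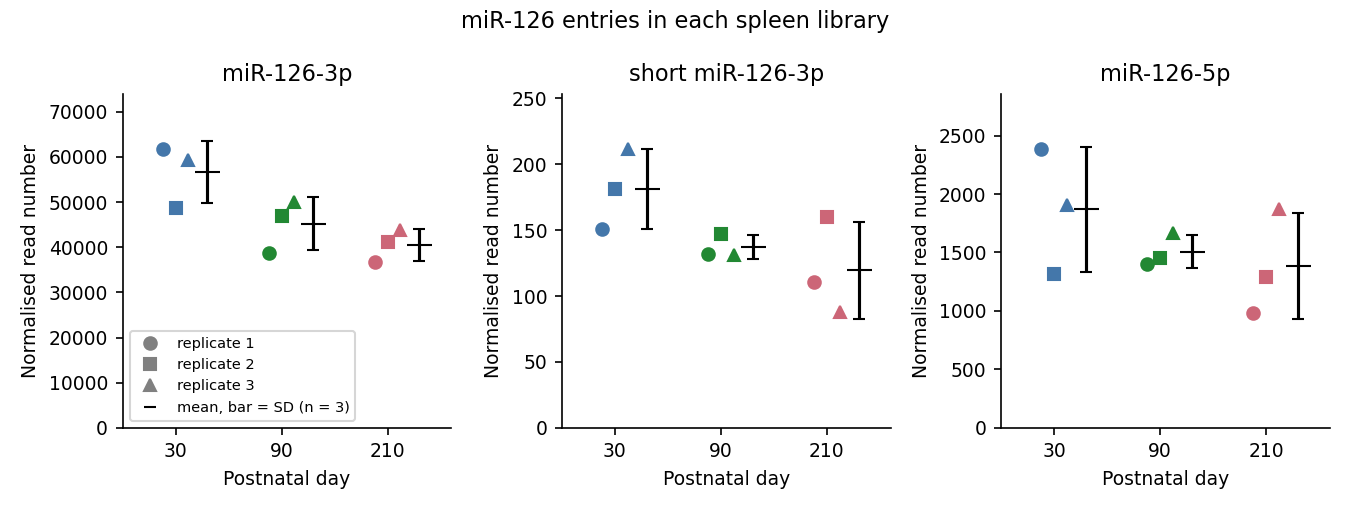
Normalised read number (vertical axis, from 0) of the 3 miR-126 entries in each library against postnatal day; symbols are replicates, and the bar beside them is the mean with the SD of 3 libraries. The day 210 libraries of miR-126-3p, from 36740 to 43836, all lie below the lowest day 30 library at 48773, while the miR-126-5p libraries of the 3 ages overlap.

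The age differences of miR-126-3p did not pass the threshold of an adjusted p of 0.05 in limma, which was run on log2(value + 1) over all 630 entries with Benjamini-Hochberg adjustment. Between day 210 and day 30 the level was 1.39-fold lower (log2 -0.48 ± 0.14 SE, 95% interval -0.80 to -0.15, adjusted p = 0.0625 by limma). Between day 90 and day 30 it was 1.252-fold lower (log2 -0.32 ± 0.14, interval -0.65 to -5.78e-04, adjusted p = 0.328). Between day 210 and day 90 it was 1.11-fold lower (log2 -0.15 ± 0.14, interval -0.48 to 0.17, adjusted p = 0.533). Leaving out 1 library moved the last difference to between -0.0755 (without day 90 replicate 3) and -0.262 (without day 90 replicate 1), and it was -0.0837 without day 210 replicate 1. That between day 90 and day 30 was -0.215 without day 90 replicate 1. The order of the group means was thus day 30, day 90, day 210, and no neighbours in that order differed beyond their spread. An F test over the 3 ages in the same fit gave an adjusted p of 0.107, with 10.3% of all entries called. The median log2 difference of all entries tested was -0.15 between day 210 and day 30, and miR-126-3p differed from that median by -0.33.

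The day 210 to day 30 difference of miR-126-3p lay close to the threshold and crossed it under some settings. With the libraries rescaled to the same sum it was -0.71 (adjusted p = 0.0183 by limma), and with TMM rescaling it was -0.56 (adjusted p = 0.0440). It was -0.54 without day 210 replicate 3, the shallowest library (adjusted p = 0.0451). Rescaling to the same sum moved the median of all entries to -0.38 and TMM moved it to -0.23. The distance of miR-126-3p from the median was -0.33 under each of the 3 scalings. This is no check of the result, since rescaling a library shifts all its entries nearly alike and can hardly change that distance. Rescaling to the same sum also changed the split of calls over all entries: 14.7% were called between day 210 and day 30, of which those lower made up 11.4% of all entries, and 8.8% between day 210 and day 90, with 5.6% lower. Over all 19 alternatives the adjusted p ran from 0.0183 to 0.198 and the direction stayed the same. Within day 210 the value of miR-126-3p was highest in the library with the fewest estimated reads and lowest in the one with the most. The other ages did not share this order. Within day 90 the value was highest in the library with the most estimated reads, and within day 30 it was lowest in the one with the fewest. The part of depth in the result was not tested.

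The short 3p form was scarce. Its values were 151, 181 and 211 at day 30, 132, 147 and 132 at day 90, and 111, 160 and 88.0 at day 210, in the order of the replicates. Every day 90 library lay below every day 30 library, which held for 13.8% of all entries tested, and day 210 overlapped with both. Its level was 1.54-fold lower at day 210 than at day 30 (log2 -0.62 ± 0.27, adjusted p = 0.161 by limma) and 1.31-fold lower at day 90 than at day 30 (log2 -0.39 ± 0.27, adjusted p = 0.549). Only 55 to 292 estimated reads stood behind these values, which gives a counting error of between 5.85% and 13.5% of the value, against a spread of 20.5% between the libraries of an age.

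miR-126-5p had the widest spread. Its values were 2383, 1320 and 1906 at day 30, 1405, 1452 and 1666 at day 90, and 986, 1292 and 1875 at day 210. Day 30 replicate 2 was lower than every day 90 library, day 210 replicate 3 was higher than every day 90 library, and the 3 ages overlapped. The group values were 1870 ± 532, 1508 ± 139 and 1384 ± 452. Between day 210 and day 30 the log2 difference was -0.44 ± 0.27 (interval -1.04 to 0.16, adjusted p = 0.311 by limma). It was -0.27 ± 0.27 between day 90 and day 30 (adjusted p = 0.709) and -0.17 ± 0.27 between day 210 and day 90 (adjusted p = 0.706). Each of the 3 differences moved widely when single libraries were left out. That between day 210 and day 30 moved to -0.247 and -0.672 when day 30 replicates 1 and 2 were left out in turn, and to -0.223 and -0.686 for day 210 replicates 1 and 3. That between day 90 and day 30 was -0.077 without day 30 replicate 1 and -0.503 without day 30 replicate 2. That between day 210 and day 90 turned to 0.0502 without day 210 replicate 1. It was -0.0954 with day 90 replicate 3 left out and -0.414 with day 210 replicate 3 left out.

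Across the 3 entries limma thus called 0 of 3 in each comparison. The log2 difference of all 3 was below 0 in every comparison, but so was the median of all 630 entries. That median was -0.04 between day 90 and day 30, -0.15 between day 210 and day 30 and -0.14 between day 210 and day 90. At an unadjusted p under 0.05 limma had 1 of 3 lower between day 90 and day 30, 2 of 3 between day 210 and day 30, and 0 of 3 between day 210 and day 90. Among all 630 entries 1.11% were called between day 90 and day 30, 9.21% between day 210 and day 30 and 8.1% between day 210 and day 90. At the unadjusted threshold, 7.46%, 16.8% and 15.1% of all entries were lower in these 3 comparisons, in the same order. For the 3p arm the spread between libraries of an age, 11.5% of the value, was far above its counting error of at most 0.604%. For the 5p arm the spread was 25.6%, against a counting error of at most 3.29%. These estimates of counting error cover counting only, since PCR copies cannot be told from separate molecules.

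A share of the library does not depend on how the authors scaled it, and the share of miR-126 differed among the ages. The 3 entries together held 1.04%, 0.764% and 0.951% of all values at day 30. They held 0.628%, 0.728% and 0.738% at day 90, and 0.506%, 0.540% and 0.636% at day 210. Every day 30 library lay above all 6 later libraries, while day 90 and day 210 overlapped. The means were 0.919 ± 0.142% at day 30, 0.698 ± 0.0610% at day 90 and 0.561 ± 0.0674% at day 210 (SD, n = 3). An exact permutation test of the F statistic over the 280 partitions of the libraries gave p = 0.00714, and 0.00952 adjusted over the 4 shares tested (all entries together and each of the 3 alone). Since miR-126-3p makes up nearly all of the sum, the test of the sum and that of miR-126-3p are close to the same test. The adjustment counts them as separate. The shares of other entries were not put to this test, so how many would pass it is not known.

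Between pairs of ages, 3 libraries against 3 cannot go below p = 0.1 in a two-sided exact permutation test. That smallest value was reached for day 210 against day 30 (a difference of -0.359 percentage points) and for day 90 against day 30 (-0.221 points). Day 210 and day 90 differed by -0.137 points, within the spread of their libraries (exact permutation p = 0.2). Of all entries tested, 25.1% had a lower share in every day 210 library than in every day 30 library, 16.7% did so between day 90 and day 30, and 21.7% between day 210 and day 90. By member, the share of miR-126-3p and that of the short form each gave p = 0.00952 over the 3 ages after adjustment, and that of miR-126-5p gave 0.232 (exact permutation tests). The call for the 3 entries together and that for miR-126-3p were lost without day 210 replicate 1 or day 210 replicate 2, and that for the short form without day 210 replicate 1 (adjusted p = 0.0619 by exact permutation in each case). The share of miR-126-5p passed without day 30 replicate 2 (adjusted p = 0.0286, exact permutation). Without the 10 most abundant entries in the sum, the adjusted p of the 3 entries together was 0.0286 by exact permutation.

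No difference among the ages was detected in the proportion of the 2 arms. The 3p arm, both forms summed, was 26.0, 37.1 and 31.3 times the 5p arm in the day 30 libraries. The ratio was 27.6, 32.5 and 30.1 at day 90, and 37.4, 31.9 and 23.4 at day 210. Both the highest and the lowest ratio were found at day 210, in replicates 1 and 3, and the ages overlapped throughout. On the log2 scale the means were 4.96 ± 0.26, 4.91 ± 0.12 and 4.92 ± 0.34 (SD, n = 3; exact permutation p = 0.979 over the 3 ages). The 95% interval of the difference between day 210 and day 30 ran from -0.51 to 0.43 on the log2 scale (limma over 54 arm pairs, a fit added after the data were seen), and the sign of this difference changed without day 30 replicate 2 or day 210 replicate 3.

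Put as a share, the 5p arm made up between 2.605% and 4.095% of all miR-126 values of a library. Single libraries differed beyond counting error. The exact 95% binomial intervals (Clopper-Pearson, on estimated reads, counting error only) ran from 2.44% to 2.78% in day 210 replicate 1 and from 3.87% to 4.33% in day 210 replicate 3. The short form likewise made up 0.2004% of the 3p values in day 210 replicate 3 (interval 0.151% to 0.261%) and 0.388% in day 210 replicate 2 (0.323% to 0.462%). Its group means were 0.323 ± 0.0687% at day 30, 0.305 ± 0.0401% at day 90 and 0.296 ± 0.0939% at day 210 (SD, n = 3; exact permutation p = 0.875 over the ages). Of 432 pig miRNA names, 9 had more than 1 entry, and miR-126-3p was among these.

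**Figure D2:**
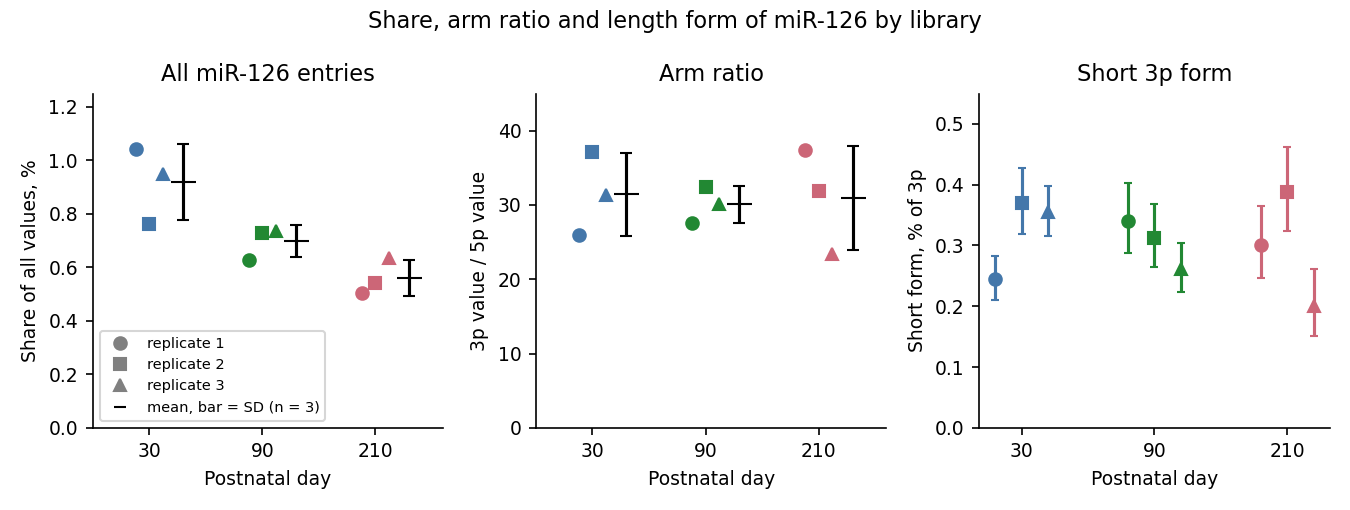
Left, share of all values of a library held by the 3 miR-126 entries (percent); middle, ratio of the summed 3p value to the 5p value; right, short form as a percent of the 3p values with its exact 95% binomial interval, each against postnatal day with 1 symbol per library. Black bars are means with the SD of 3 libraries; the share is highest in the day 30 libraries, from 0.764% to 1.04%, while the arm ratio lies between 23.4 and 37.4 with no order by age.

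Among miRNAs with both arms named, miR-126 was one of the hairpins that lean to the 3p arm. Of 54 hairpins whose arms each had a value of at least 5 in every library, 25 had more of the 3p arm and 29 more of the 5p arm. Ordered from the most 3p-biased, miR-126 took place 10, next to miR-214 with a mean log2 ratio of 4.99 and miR-148a with 4.57, against 4.93 for miR-126 itself. The typical imbalance was 3.995 log2 units in either direction (median over the 54), so that of miR-126 was above the middle, at place 20. Its spread between libraries of an age was 0.26 log2 units, against a median of 0.25. In limma over the 54 ratios, 0 pairs were called between day 90 and day 30, 1 (1.85%) between day 210 and day 30 and 5 (9.26%) between day 210 and day 90; miR-126 was in none of these, with adjusted p of 0.894, 0.900 and 0.974.

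**Figure D3:**
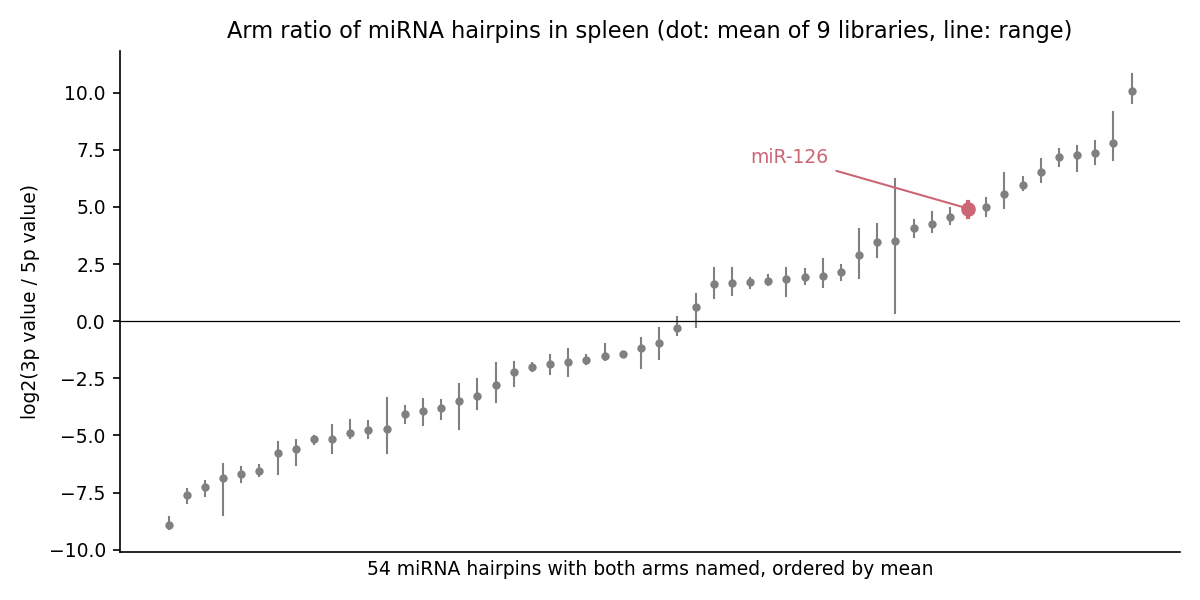
log2 ratio of the 3p value to the 5p value (vertical axis; 0 means equal arms) for 54 miRNA hairpins ordered by their mean; dots are means of 9 libraries and lines run from the lowest to the highest library. miR-126 (red) has a mean of 4.93 and a range from 4.55 to 5.22, among the 25 hairpins with more of the 3p arm.

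In abundance, miR-126-3p held places 26 to 30 among all entries in the day 30 libraries, 32 to 36 at day 90 and 32 to 38 at day 210. By its mean over the 9 libraries, 47476, it followed miR-378 (51091) and preceded miR-363 (40096). The libraries of these neighbours overlapped with its own, which ran from 36740 to 61699: those of miR-378 ran from 41636 to 67058 and those of miR-363 from 31444 to 46199. miR-126-5p held places between 127 and 156, beside miR-378b-3p and the candidate PC-5p-897_7083. The short form lay between places 250 and 306, beside mir-6529-p3 and the liver miRNA miR-122-5p. Values are per sequence and are not corrected for how well each sequence is captured, so these places order the entries of the table and not molecules per cell.

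miRNAs known from other cells of the spleen, and the most abundant entry, served as references within each library. The summed miR-126 value was divided by the most abundant entry of each of 9 miRNAs, and the log2 ratios were compared over the ages by exact permutation tests adjusted over the 9. These ratios do not depend on scaling, but all 9 share the miR-126 value. Relative to 3 of the 9, miR-126 differed among the ages: miR-150 of mature lymphocytes, miR-143-3p of smooth muscle and miR-26a, the most abundant miRNA of the table (adjusted p = 0.0214 for each by exact permutation). All 3 calls were lost without day 90 replicate 3, and that against miR-143-3p also without day 30 replicate 1 or 3 (adjusted p = 0.0537 by exact permutation in each case). They were lost as well when the 5p arm alone stood for miR-126, with adjusted p between 0.0644 and 0.154 by exact permutation.

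Against miR-150, miR-126 went from the higher to the lower of the pair. The log2 ratio was 0.55, 0.08 and 0.25 at day 30, -1.11, -0.77 and -0.44 at day 90, and -1.24, -1.16 and -0.97 at day 210. Every day 30 library was above 0 and every later library below it. miR-150 itself rose between day 30 and day 90 by 0.75 ± 0.12 on the log2 scale (adjusted p = 0.0190 by limma) and between day 30 and day 210 by 0.94 ± 0.12 (adjusted p = 0.00388).

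Against miR-143-3p the ratio was lower at day 210 than at both earlier ages. It was -3.64, -3.99 and -3.70 at day 30, -4.0003, -3.73 and -4.08 at day 90, and -4.49, -4.57 and -4.63 at day 210. The day 30 and day 90 libraries overlapped and the day 210 libraries lay below all of them. At day 210 miR-143-3p itself differed by 0.31 ± 0.15 from day 30 and by 0.47 ± 0.15 from day 90 on the log2 scale. Neither difference was called (adjusted p = 0.210 and 0.0924 by limma). Against miR-145-5p, which shares a primary transcript with miR-143, the mean log2 ratios from the youngest to the oldest age were -2.03 ± 0.20, -1.96 ± 0.25 and -3.29 ± 0.37 (SD, n = 3). Every day 210 library was again below every earlier library, and the adjusted p was 0.0563 by exact permutation (0.0450 to 0.0481 without day 90 replicate 1, day 210 replicate 1 or day 210 replicate 3). miR-145-5p rose by 0.78 ± 0.17 between day 30 and day 210 and by 1.17 ± 0.17 between day 90 and day 210 (adjusted p = 0.0232 and 0.00683 by limma).

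Against miR-26a the mean log2 ratio went from -3.91 ± 0.20 at day 30 to -4.45 ± 0.12 at day 90 and -4.61 ± 0.05 at day 210 (SD, n = 3), and every later library lay below every day 30 library. From day 30, miR-26a itself differed by 0.22 ± 0.11 at day 90 and by 0.22 ± 0.11 at day 210 on the log2 scale. Neither difference was called (adjusted p = 0.393 and 0.209 by limma). The other 5 ratios did not pass after adjustment over the 9. The ratio to mir-142-p5, a miRNA of all leukocytes, was 2.09 ± 0.13, 1.06 ± 0.28 and 1.48 ± 0.50 (adjusted p = 0.0836 by exact permutation; 0.0241 without day 210 replicate 3). That to miR-223, of myeloid cells and platelets, was 3.13 ± 0.31, 2.46 ± 0.32 and 2.93 ± 0.31 (adjusted p = 0.149 by exact permutation), with a day 210 to day 30 difference of -0.198 that ran from -0.374 (day 30 replicate 1 left out) to -0.0187 (day 210 replicate 1 left out). Leaving out day 30 replicate 2 gave -0.0908, day 30 replicate 3 gave -0.129 and day 210 replicate 2 gave -0.309. The ratio to miR-214-3p of fibroblasts was 1.86 ± 0.42, 2.04 ± 0.05 and 1.39 ± 0.31 (adjusted p = 0.147 by exact permutation), and its day 210 to day 30 difference of -0.472 was -0.237 without day 30 replicate 1.

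The red cell miRNAs did not give one answer. Against miR-486 the mean ratios were 2.64 ± 0.16, 2.98 ± 0.04 and 3.39 ± 0.57 (adjusted p = 0.147 by exact permutation; 0.0321 without day 210 replicate 1). Day 210 replicate 1, at 2.73, lay inside the range of day 30, while replicates 2 and 3 stood at 3.77 and 3.67. Against miR-451 the means were 2.69 ± 0.42, 1.96 ± 0.41 and 2.18 ± 0.98 (adjusted p = 0.432 by exact permutation).

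**Figure D4:**
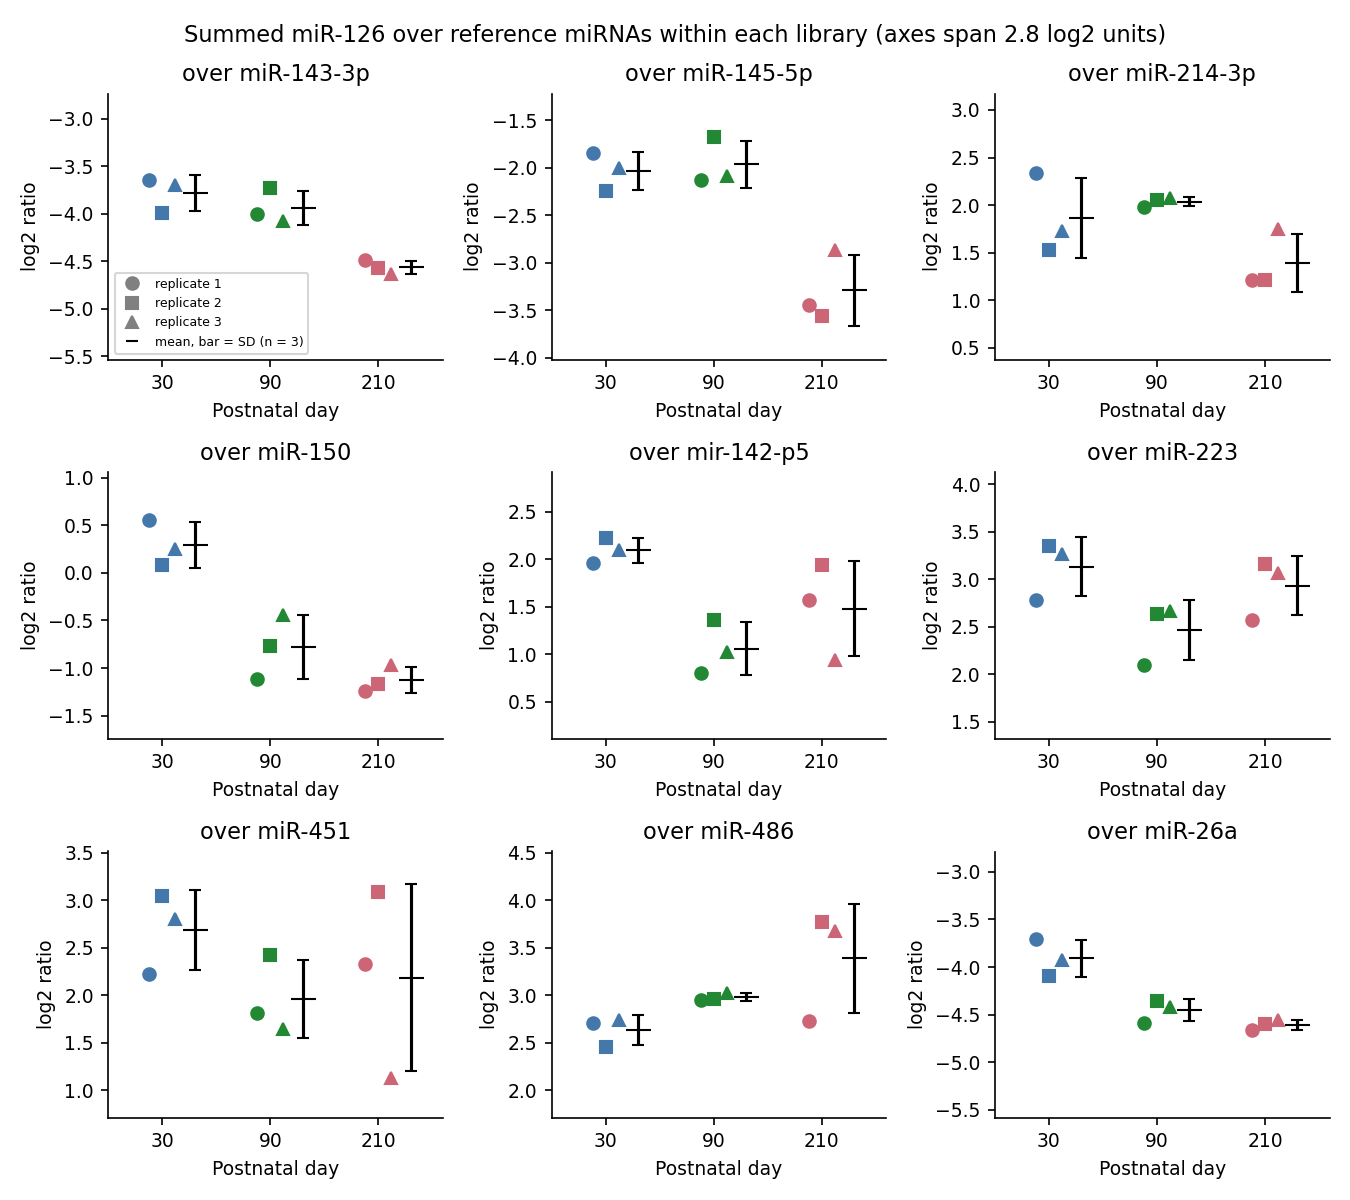
log2 of the summed miR-126 value over 9 reference miRNAs (vertical axes, log2 units) in each library against postnatal day; symbols are replicates and bars are means with the SD of 3 libraries. The ratio to miR-150 is above 0 in the day 30 libraries and below 0 in all later ones, and the ratios to miR-143-3p and miR-145-5p are lowest in the 3 day 210 libraries.

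The cell type lists behind these references were all chosen with earlier results of these data known. Of the 4 smooth muscle entries limma called 1, miR-145-5p, higher at day 210 than at both earlier ages, and 0 lower. Of the 3 lymphocyte entries 1 was called higher in each comparison, miR-150 in both comparisons with day 30 and miR-342 between day 210 and day 90. Of the 4 red cell entries 2 were called lower between day 210 and day 30, miR-486 and mir-144-p5. By limma 0 of 5 fibroblast, 0 of 2 miR-142 and 0 of 2 miR-223 entries were called in any comparison. Over all entries 0.794% were called higher between day 90 and day 30, 4.6% in each direction between day 210 and day 30, and 4.13% higher between day 210 and day 90.

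Members of 1 list did not all lie on the same side. The entry mir-342-p5 had log2 differences of -0.39 at day 90 and -0.47 at day 210 from day 30 (adjusted p = 0.370 and 0.128 by limma), and miR-342 had -0.23 at day 90 (adjusted p = 0.392). Between day 90 and day 30, miR-143-5p differed by -0.57 and miR-145-5p by -0.39 (adjusted p = 0.156 and 0.317 by limma).

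At an unadjusted p under 0.05 limma had, between day 90 and day 30, 2 smooth muscle, 1 fibroblast and 2 red cell entries lower, and 1 lymphocyte and 1 miR-142 entry higher, where 7.46% of all entries were lower and 7.78% higher. For day 210 against day 30 it had 2 smooth muscle and 2 lymphocyte entries higher, and 1 lymphocyte, 1 fibroblast and 3 red cell entries lower, where 12.5% of all were higher and 16.8% lower. For day 210 against day 90 it had 3 smooth muscle, 1 fibroblast and 1 lymphocyte entry higher, and both miR-223 entries and 1 red cell entry lower, where 12.1% of all were higher and 15.1% lower. The part of a changing mix of cells in the miR-126 values was not tested.

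A list of 26 other miRNAs known from the growth of blood vessels gave 48 tested entries of 50 in the table. Between day 90 and day 30 limma called 0 of the 48, against 0.794% of all entries higher and 0.317% lower (at an unadjusted p under 0.05, 4 higher and 3 lower, where 15.2% of all entries passed in either direction), with a median log2 difference of 0.05 against -0.04 for all entries. Between day 210 and day 30 it called 3 lower and 1 higher, against 4.6% of all entries in each direction, with a median of -0.22 against -0.15. At an unadjusted p under 0.05 it had 10 lower and 3 higher there, where 16.8% of all entries were lower and 12.5% higher. Between day 210 and day 90 it called 3 lower and 1 higher, against 3.97% and 4.13% of all entries, with a median of -0.32 against -0.14. Without adjustment it had 9 lower and 2 higher there, where 15.1% of all entries were lower and 12.1% higher. The counts of calls at the adjusted threshold were unstable. With 1 library left out, day 210 against day 30 had between 0 and 9 calls. For day 210 against day 90 there were between 0 and 12. The highest counts came without day 210 replicate 1 (9 and 7) and day 210 replicate 3 (8 and 12). Without any one of the other 7 libraries, day 210 against day 30 had 0 or 1. Day 210 against day 90 had 0 without day 90 replicate 1 or 2 or day 210 replicate 2, and 1 without day 90 replicate 3.

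Of the members called, miR-218-5p, whose hairpins lie in introns of the SLIT genes, fell by 1.11 ± 0.30 on the log2 scale between day 30 and day 210 (adjusted p = 0.0470 by limma). miR-221-3p, known for restraining KIT in endothelium, fell by 0.61 ± 0.12 between day 90 and day 210, from a mean of 12814 to 8417 (adjusted p = 0.0196). miR-23b rose between the same ages by 0.56 ± 0.13, from 50007 to 73799 (adjusted p = 0.0256). miR-24-2-5p rose by 0.94 ± 0.22 between day 30 and day 210 (adjusted p = 0.0303). mir-92a-1-p5, the passenger arm of a miR-17-92 member, fell by 1.81 ± 0.46 between day 30 and day 210 and by 1.75 ± 0.46 between day 90 and day 210 (adjusted p = 0.0377 and 0.0457). The scarce mir-16-2-p3 was listed at 0 in all day 210 libraries and had means of 5.77 at day 30 and 8.79 at day 90 (adjusted p = 0.0342 and 0.0203 by limma). It was 1 of the 3 list entries called lower in each comparison with day 210. Only day 30 and day 90 libraries carried it past the filter on low values, and its highest value was 10.6. The value of 1 read was at least 1.07 in day 210 libraries and at most 1.02 in earlier ones. The part of the filter and of depth in its fall was not tested.

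The entry whose levels over the 9 libraries were most like those of miR-126-3p was miR-218-5p, with a Pearson correlation of 0.932 of log2(value + 1) among the pig miRNAs tested other than miR-126. It stood at 440, 262 and 463 at day 30, 231, 227 and 282 at day 90, and 130, 170 and 239 at day 210. As with miR-126-3p, day 30 replicate 2 was the lowest of its age and day 210 replicate 3 the highest of its age. The next were miR-107 (0.919), with 5963, 4715 and 5089 at day 30, 3440, 3629 and 3763 at day 90 and 2540, 2754 and 3303 at day 210, then miR-551a (0.894), miR-330 (0.857) and the scarce miR-21-3p (0.850). The value of miR-21-3p was 0 in day 30 replicate 2, day 90 replicates 1 and 2 and every day 210 library. Its highest value was 10.2, so its correlation rests on few reads. With the other miR-126 entries left out, the order for miR-126-5p was miR-135 (0.935), miR-218-5p (0.880), miR-326 (0.874), miR-30e-5p (0.839) and miR-532-5p (0.815). For the short form it was miR-615 (0.955), miR-1296-5p (0.924), miR-490-3p (0.887), miR-7144-5p (0.873) and miR-296-3p (0.864). Of these miR-615 was scarce, with a mean of 8.78 over the 9 libraries and a value of 0 in day 210 replicates 1 and 3. These correlations describe 9 libraries, and within each library all entries share its scaling and depth. The entries were picked as the highest of the 406 pig miRNA entries tested, with the miR-126 entries left out.

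Some other miRNAs correlated more highly with each arm than the arms did with each other. The correlation of miR-126-5p with miR-126-3p was 0.817 over the 9 libraries, place 5 among 405 entries for the 5p arm and place 12 for the 3p arm. The 2 length forms of the 3p arm correlated at 0.556, and the short form correlated with the 5p arm at 0.124, with few reads behind the short form. miR-218-5p was the one entry named for both miR-126-3p and miR-126-5p.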

How the data were processed

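Per the labels' protocols, RNA was taken up in Trizol, small RNA libraries were built with an Illumina TruSeq kit, and the authors' program ACGT101-miR filtered the raw reads. The deposited table holds a signal per mature sequence, a read number normalised per library by the authors, per the file headers. The aligner, build, miRNA database and scaling have no mention in the labels or headers. Entries repeating the sequence and all values of another were dropped, 5 of 980.

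limma 3.58.1 in R 4.3.3 took log2(value + 1) of all 9 libraries, with each age as a group and a mean-variance trend, over the 630 entries that reached 5 in 3 or more libraries. Group values are means ± SD and fold changes are given ± SE. Shares and ratios were compared by exact permutation tests, whose smallest p is 0.00357 over 3 ages. Patterns were compared by Pearson correlation, naming the 5 highest outside miR-126. Tested on simulated data shaped like day 210 against day 30 with 630 entries, limma found 16 of 50 entries set to a log2 change of 1, 28 of 50 set to 2, and 0 of 530 set to none.

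In the table between 88.1% and 92.7% of the values above 0 were whole numbers of estimated reads and at least 99.2% were multiples of a sixth of a read (tolerance 0.01 of a read), so no count test was used. The members and all lists were chosen with earlier results of these data known. Named are the miR-126 entries, the list members that passed, the 9 references, and the neighbours in level and pattern. The fit over arm pairs and the arm ratio without the short form were chosen after seeing the data.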

Additional observations from a re-analysis of the deposited data

How the results depend on the processing

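Every limma result of the miR-126 entries was refitted under 18 or 19 alternatives. For miR-126-3p between day 210 and day 30 the difference passed with the libraries rescaled to the same sum (-0.71, adjusted p 0.0183), TMM rescaling (-0.56, 0.0440) and sample weights (-0.56, 0.0295); leaving out 1 library gave -0.58 to -0.41. Its F test passed with rescaling to the same sum (adjusted p 0.0309) and sample weights (0.0278). miR-126-5p turned from -0.17 to 0.0502 between day 210 and day 90 without day 210 replicate 1 (range without 1 library -0.41 to 0.0502). Without 1 library miR-126-5p ran from -0.503 to -0.077 between day 90 and day 30 and from -0.686 to -0.223 between day 210 and day 30; between day 210 and day 90 miR-126-3p ran from -0.262 to -0.0755 and the short form from -0.466 to -0.0381. The share of miR-126-5p differed between day 210 and day 30 by -0.0155 to -0.00621 points without 1 library. Over the 3 ages this share gave p = 0.0286 by exact permutation without day 30 replicate 2. The log2 arm ratio difference between day 210 and day 30 turned from -0.04 to 0.0911 without day 30 replicate 2 and 0.151 without day 210 replicate 3 (range -0.186 to 0.151).

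For the ratios the replicate block (permutation within replicate number, smallest p 0.0278) ended the calls against miR-143-3p (-0.79, adjusted p 0.1), miR-150 (-1.42, 0.0834) and miR-26a (-0.70, 0.0834). Deviations of same-numbered libraries correlated between -0.102 and 0.188, so the numbers were not taken as pairs. The 3 ratios at that smallest p were those to miR-150, miR-26a and miR-223. With 9 ratios adjusted, 3 at that p come to 0.0834. For miR-150 and miR-26a the block could thus pass only if more of the 9 ratios had reached it, and it says nothing about their calls. The shares, adjusted over 4 in each setting, passed under the block (0.0371 for all entries, miR-126-3p and the short form). Without 1 library the share difference between day 210 and day 30 was -0.436 to -0.297 points for all entries and -0.419 to -0.289 for miR-126-3p (calls lost without day 210 replicate 1 or 2, adjusted p 0.0619), and -0.00147 to -0.00102 for the short form (lost without day 210 replicate 1, 0.0619). In limma the block changed no call of a miR-126 entry (miR-126-3p between day 210 and day 30, adjusted p 0.0625), and the list of vessel miRNAs had 1 call in place of 4 for that comparison. With the 5p arm alone the calls against miR-143-3p (-0.75, 0.145), miR-150 (-1.39, 0.0644) and miR-26a (-0.67, 0.154) ended and mir-142-p5 passed (-0.58, 0.0321). Without 1 library the ratio difference ran from -0.89 to -0.72 for miR-143-3p (call lost without day 30 replicates 1 and 3 and day 90 replicate 3, adjusted p 0.0537), -1.53 to -1.29 for miR-150 and -0.79 to -0.60 for miR-26a (both lost without day 90 replicate 3, 0.0537), -1.47 to -1.12 for miR-145-5p (passed in 3 of 9), -0.374 to -0.0187 for miR-223, -0.649 to -0.237 for miR-214-3p, -0.84 to -0.34 for mir-142-p5, 0.57 to 1.09 for miR-486 and -0.96 to 0.0187 for miR-451, reversed without day 210 replicate 3. Calls in the list of vessel miRNAs ran from 0 to 1, 0 to 9 and 0 to 12 for day 90 and day 210 against day 30 and day 210 against day 90. The causes were not tested. Depth limits the short 3p form most, with 55 to 292 estimated reads.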
